A study of Mus musculus with 6 samples.

Results

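CUL3 is the scaffold of a large class of ubiquitin ligases, and its substrate adaptors were examined in mouse embryonic fibroblasts that were wild-type or heterozygous for one of them, Lztr1. The genes were chosen by symbol. They are all Klhl, Kbtbd, Btbd and Kctd genes whose family name is followed by a number, together with Lztr1, Keap1, Enc1, Ipp and Spop, and the ligase core genes Cul3 and Rbx1. This gave 87 of 51826 genes in the tables, namely 36 Klhl, 22 Kctd, 13 Btbd and 9 Kbtbd genes and the 7 genes taken by name, and all 87 are protein-coding. A further 31 symbols with another suffix, 30 of them Btbd35f copies, were left out and had no count in any library. The choice rests on names, and not every BTBD or KCTD protein is known to bind CUL3.

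The wild-type group (Lztr1 +/+) was cultures 10, 12 and 16, and the heterozygous group (Lztr1 +/-) was cultures 11, 15 and 18. All 6 are embryonic fibroblasts, connective-tissue cells put into culture from embryos. They share the C57BL/6 strain background and 1 passage range. The labels state neither the mutant allele, nor the age of the embryos, nor whether each culture came from an embryo of its own. The p-values therefore measure only how far these cultures differ, and part of that may be technical. The question addressed is whether other adaptors, or the ligase core, differ in RNA level when Lztr1 is reduced.

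In these ligases the cullin CUL3 holds the RING protein RBX1 at one end, which recruits the ubiquitin-charged enzyme. At its other end it binds the BTB domain of an adaptor, and a second domain of the adaptor, often a kelch propeller, holds the substrate. One protein thus does the work that a linker and a receptor share in the CUL1 ligases. Adaptors compete for the same cullin, and exchange between them depends on attachment and removal of the ubiquitin-like protein NEDD8. LZTR1 has kelch repeats and BTB domains and targets RAS-family proteins such as RIT1 and MRAS, and its gene is mutated in Noonan syndrome and schwannomatosis.

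Library totals were 11025286 to 21885101 expected counts, so that 3 counts equalled 0.137 to 0.272 CPM, a count scaled to library size. Of the fibroblast markers 14 of 14 reached 1 TPM in wild-type cultures (TPM is also scaled for gene length). Reaching this level does not by itself identify the cell type. RNA of other cells was present too. In wild-type cultures 15 of 18 skeletal muscle markers, 14 of 14 neural, 12 of 12 macrophage and blood, 9 of 11 epithelial, 6 of 12 erythroid and 6 of 9 endothelial markers reached 1 TPM. In bulk libraries fewer cells of a type and less RNA per cell cannot be told apart. Summed fibroblast markers were 27496 to 34611 CPM in wild-type and 27383 to 30497 CPM in heterozygous cultures. Of the 14, 10 had a lower mean in heterozygous cultures, and 0 were called by edgeR. At an unadjusted p under 0.05, 5 of them were lower, against 6.65% of all tested genes. Without wild-type 16, 7 of the 14 were called, against 5.93% of all tested genes in that fit. With all cultures 14 of 15 tested skeletal muscle markers had a lower mean. A higher mean was found for 13 of 14 neural, 7 of 7 erythroid and 10 of 12 macrophage and blood markers. So it was for 6 of 9 epithelial and 5 of 7 endothelial markers. None of these genes, muscle markers included, was called with all cultures. Without wild-type 16, 3 erythroid, 1 skeletal muscle, 1 epithelial and 1 endothelial marker were called. In that fit 0 neural and 0 macrophage and blood markers were called. Their part in the differences of the adaptors was not tested. The Y-linked genes were high in wild-type culture 12 and in heterozygous cultures 15 and 18 alone, so sex is partly confounded with genotype. The number of calls depended on wild-type culture 16. Without it edgeR called 896 of 15113 genes, against 1 of 14652 with all cultures.

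Most adaptors were transcribed in the wild-type fibroblasts. Of the 87 genes 66 reached a mean of 1 TPM, or 75.9%, against 59.9% of 21793 protein-coding genes, and 38 reached 10 TPM. By family these were 25 of 36 Klhl, 19 of 22 Kctd, 10 of 13 Btbd and 5 of 9 Kbtbd genes, and all 7 genes taken by name. The families differed in level, with a median of 11.2 TPM for Btbd, 9.58 for Kctd, 4.84 for Klhl and 1.34 for Kbtbd genes. The median of the 66 detected genes, 14.6 TPM, was below that of all 13046 detected protein-coding genes, 18.2 TPM.

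The order of the levels was led by a KCTD adaptor and the ligase core. Kctd10 stood at 150.2 ± 11.2 TPM (SD, n = 3, as for the other wild-type levels here). It was followed by Cul3 at 102.1 ± 3.5 TPM and Rbx1 at 90.1 ± 6.50 TPM. Kctd17, which acts on primary cilium formation, had 85.9 ± 2.90 TPM, and Spop, whose MATH domain binds short serine-rich motifs, had 75.2 ± 1.82 TPM. Klhl22, an adaptor for the mitotic kinase PLK1, had 69.1 ± 3.75 TPM. The next genes lay within their spread of each other: Kctd5, which acts on G protein beta-gamma subunits, at 64.2 ± 2.45 TPM, Kctd12 at 62.2 ± 8.05, Lztr1 at 61.4 ± 4.08 and Kctd20 at 58.6 ± 7.52. The 10 highest adaptors held 50.9% of the summed TPM of the 85 adaptors, and Cul3 stood at 1.66 times the level of Lztr1.

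**Figure D1:**
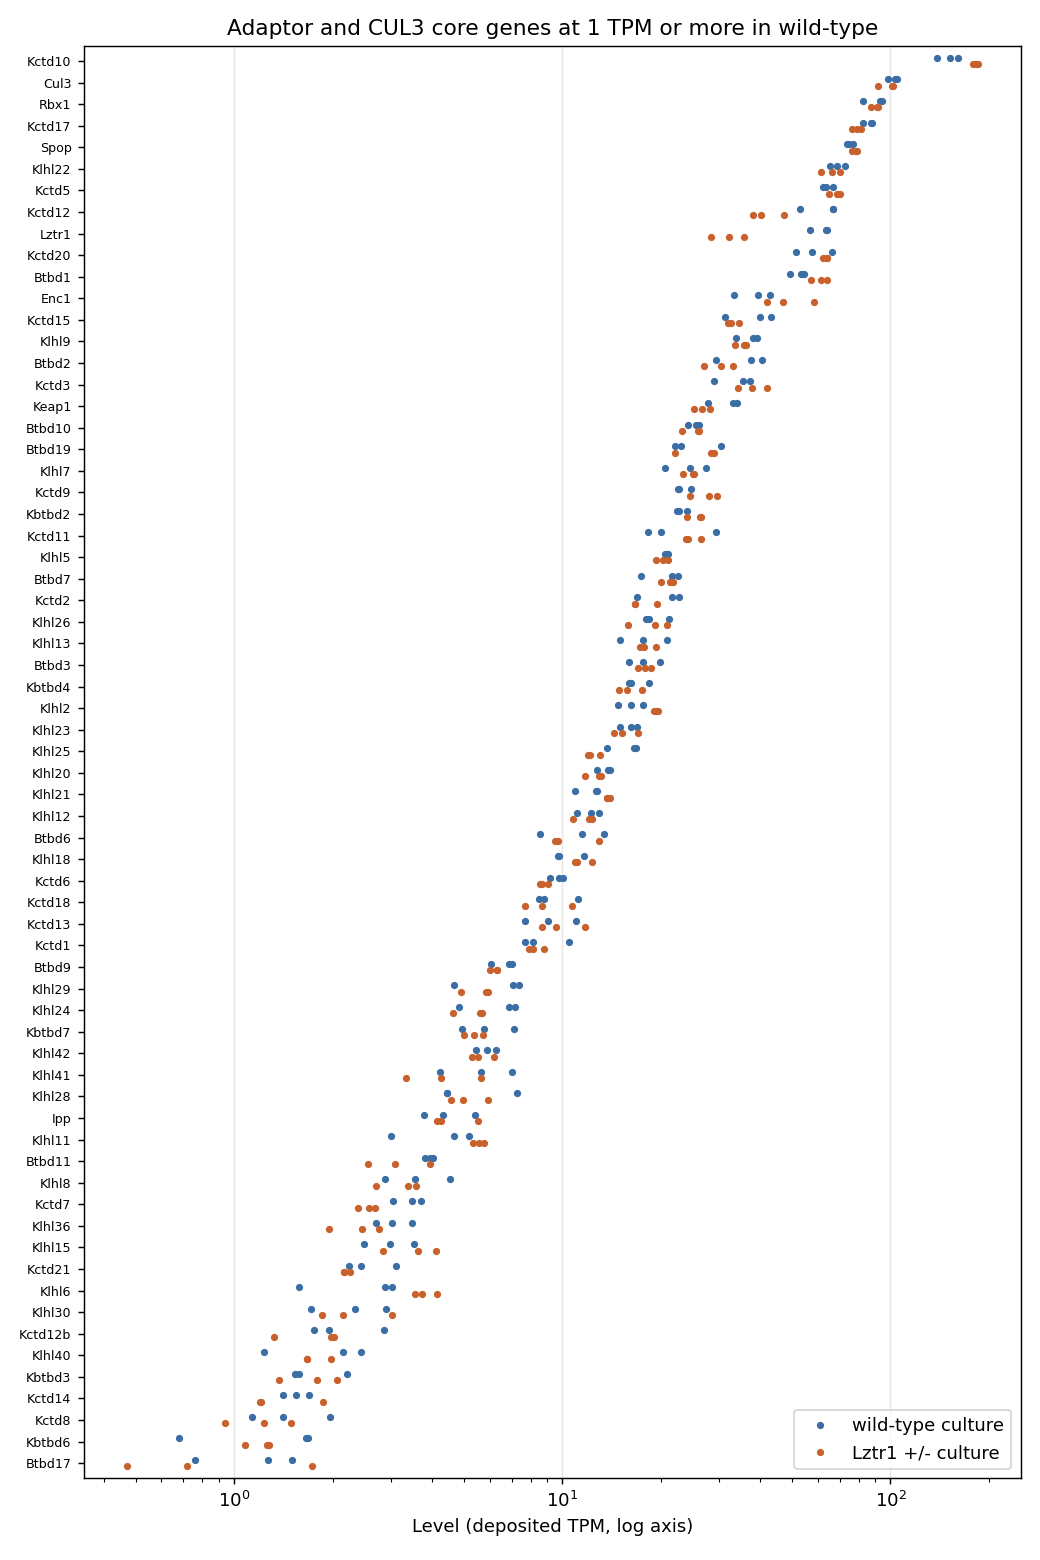
Wild-type level of the members that reached 1 TPM, in TPM on a log axis, ordered by mean; blue points are the 3 wild-type and orange points the 3 heterozygous cultures. Kctd10, Cul3 and Rbx1 lead, and Lztr1 at 61.4 TPM is the seventh highest adaptor and shifts left in heterozygous cultures.

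Adaptors listed here under specialised tissues were low or not detected. Of 9 genes known mainly from skeletal muscle 3 reached 1 TPM, Klhl41 at 5.64 ± 1.39, Klhl30 at 2.32 ± 0.600 and Klhl40 at 1.94 ± 0.632 TPM. KLHL40 and KLHL41 stabilise sarcomere proteins. The summed muscle markers were 1046, 960 and 707 CPM in the wild-type cultures (10, 12, 16), and Klhl41 ran in the same order, at 9.87, 7.78 and 6.32 CPM. In heterozygous cultures 11, 15 and 18 the markers summed to 917, 671 and 863 CPM, and Klhl41 had 8.11, 4.88 and 6.07 CPM. The part of muscle cells in these levels was not tested. Of 4 genes listed as known from neurons 1 reached 1 TPM, Kctd8 at 1.5 ± 0.422 TPM. That list leaves out 2 genes at higher levels. Kctd12, a GABA-B receptor subunit gene like Kctd8, had 62.2 ± 8.05 TPM. Enc1, first known from neural ectoderm, had 38.6 ± 4.89 TPM. The germline genes Klhl10, Btbd18 and Kctd19 all stayed under 1 TPM, as did 8 of 8 germline markers.

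The targeted gene was checked first. Lztr1 (chromosome 16, 17508688 to 17526333, plus strand, mm10) measured 93.9, 94.1 and 83.2 CPM in the wild-type cultures (10, 12, 16), and 45.9, 45.1 and 43.8 CPM in heterozygous cultures 11, 15 and 18. The groups lay far apart. The log2 difference, heterozygous over wild-type, was -1.01 (SE 0.066). It passed edgeR's quasi-likelihood test, whose p was 0.00457 after Benjamini-Hochberg adjustment over 14652 genes. Leaving out any 1 culture other than wild-type 16 put the adjusted p above 0.05, at 0.0616 to 0.0759, at a log2 difference of -1.02 to -0.97. Lztr1 held 4.36% ± 0.101 of the summed adaptor TPM in wild-type cultures and 2.30% ± 0.225 in heterozygous cultures. By mean TPM it was the seventh adaptor in wild-type and the 13th in heterozygous cultures.

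The ligase core did not pass the test. Cul3 had 149.7, 140.0 and 157.6 CPM in wild-type and 149.8, 159.2 and 152.5 CPM in heterozygous cultures, and the groups overlapped. Its log2 difference was 0.04 (SE 0.060). It was -0.07 within the later registered pair, cultures 11 and 16. On the TPM scale the sign was the other way, as it was with effective gene length as an offset, where the log2 difference was -0.04. Rbx1 had 72.5, 80.9 and 86.3 CPM in wild-type and 81.6, 79.6 and 81.1 CPM in heterozygous cultures, a log2 difference of 0.02 (SE 0.070) whose sign also changed with the scaling. The 95% intervals of the heterozygous level were 93.7 to 113.5% of wild-type for Cul3 and 90.5 to 113.2% for Rbx1.

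Summed over the 84 other adaptors, RNA levels overlapped between the genotypes. Their summed TPM was 1374, 1391 and 1279 in wild-type cultures 10, 12 and 16, and 1384, 1334 and 1378 in heterozygous cultures 11, 15 and 18. The means were 1348 ± 60.5 and 1365 ± 27.2 TPM (SD, n = 3 each), and the groups overlapped.

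Of the 87 genes 72 had enough counts to be tested. The 15 others, among them Btbd16 with no count in any library, had at most 12 counts. Lztr1 was the only 1 of the 72 called, where 0.00683% of all tested genes were called. None of the 71 others passed, with a lowest adjusted p of 0.305 by edgeR. Of the 71, 32 had a higher and 39 a lower mean in heterozygous cultures, where 49.6% of all tested genes had a higher mean, and the median log2 difference was -0.02. At an unadjusted p under 0.05 there were 4 higher genes (Kctd10, Klhl2, Enc1 and Klhl6) and, with Lztr1, 3 lower genes (Kctd12 and Keap1). These 7 of 72 compare with 12.2% of all tested genes, 5.56% higher and 6.65% lower. The groups did not overlap in 17 of the 72, or 23.6%, against 17.7% of all tested genes. By direction 7 were higher and 10 lower, where 7.75% and 9.97% of all tested genes were. The 10 lower genes include Lztr1 itself, without which it was 16 of 71, or 22.5%. They also include Klhl34 and Klhl32, low genes that entered the test through the wild-type group alone. By both measures the members were near the share of all genes. DESeq2 called 3 of the 72, Lztr1, Kctd10 and Kctd12, against 0.764% of all tested genes, and gave no adjusted p for 45 of them.

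**Figure D2:**
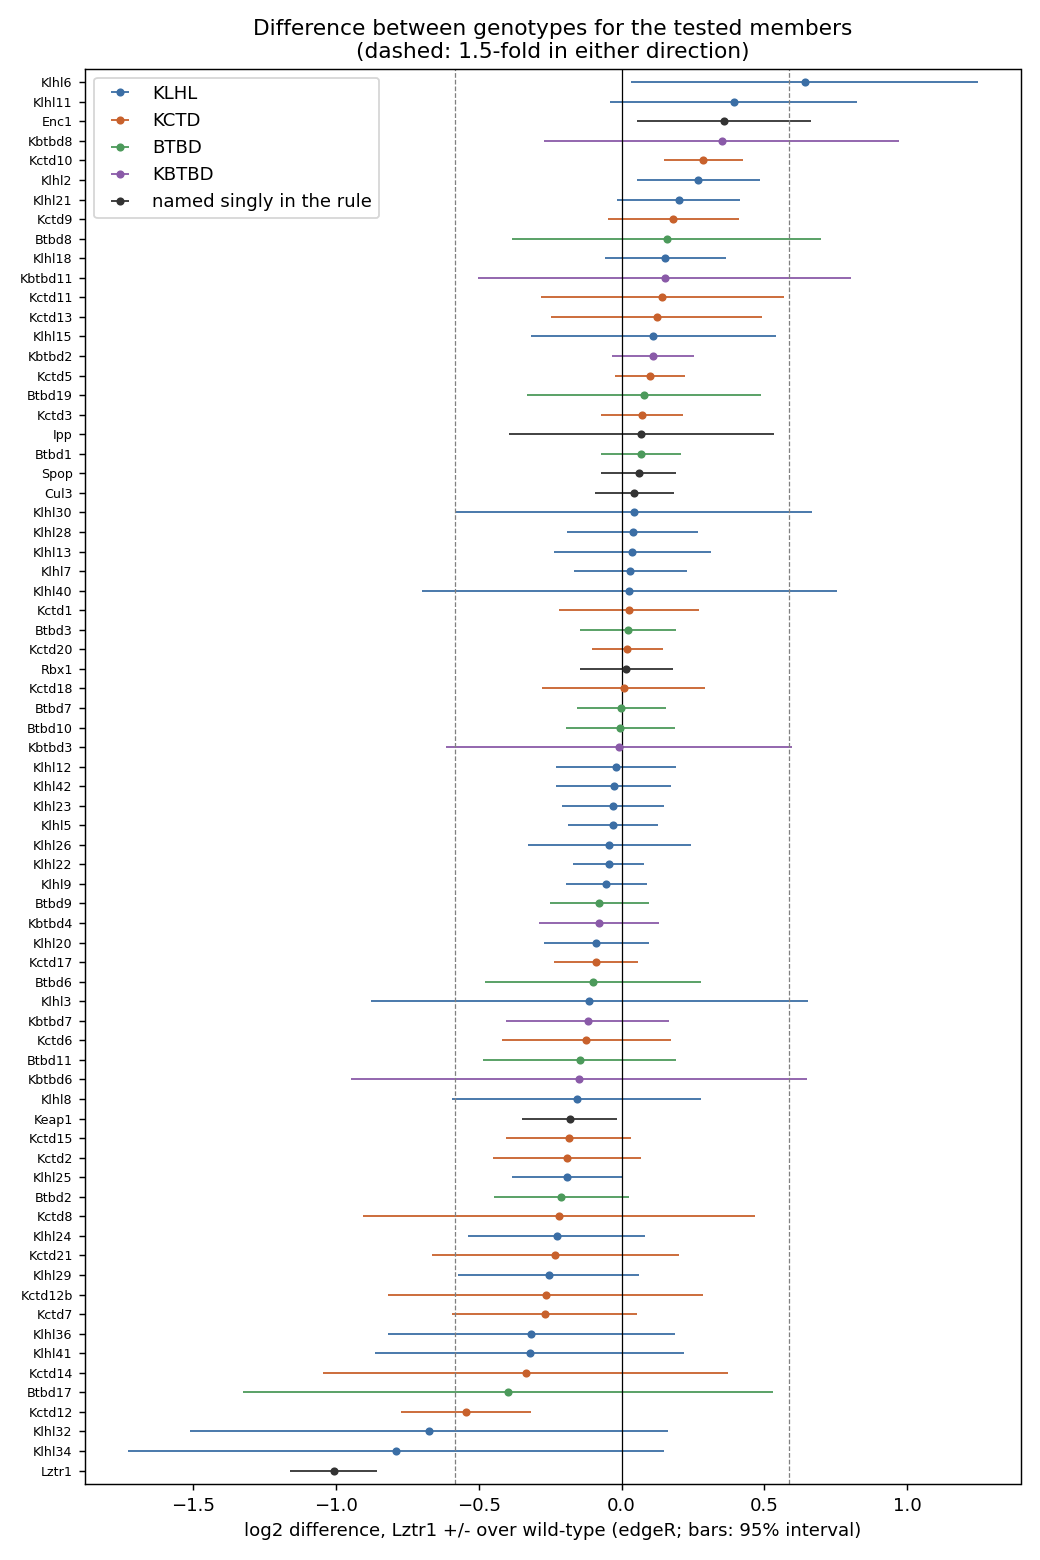
Log2 difference, heterozygous over wild-type, of the 72 tested members, coloured by family, with bars for the 95% interval; the dashed lines mark a 1.5-fold change in either direction. Lztr1 at -1.01 is the only member past the adjusted threshold, and intervals widen toward the members with few counts.

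The precision allows limits to be set on what was missed. The 95% interval lay within 1.5-fold in either direction for 48 of the 72 genes, 66.7%, against 66.4% of all tested genes. Among the 37 others at 10 TPM or more, 35 had such an interval, the exceptions being Kctd12 and Enc1, and the median SE was 0.083. Among the 34 under 10 TPM it was 13, with a median SE of 0.21. For 66 of the 71 others the interval excluded both a halving and a doubling. A halving was not excluded for Kctd14, Btbd17, Klhl34 and Klhl32, and a doubling was not excluded for Klhl6, all low genes.

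**Figure D3:**
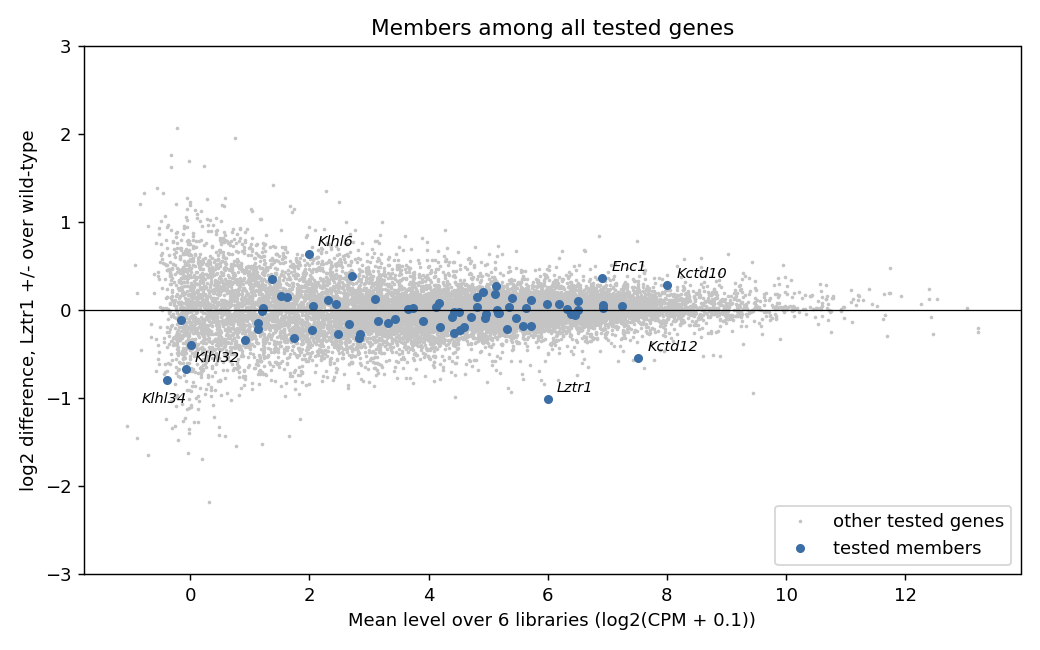
Log2 difference against mean level (log2 of CPM + 0.1) for all 14652 tested genes in grey, with the 72 tested members in blue. Lztr1 stands apart at its level, and the other members lie within the cloud.

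Kctd10 and Kctd12, which share a BTB-like tetramerisation domain, had the smallest p among the others and lay in opposite directions. The sequences around their RefSeq starts, with that of Lztr1, are shown because these are the members that the comparison turns on. Each runs from 250 bases before to 50 bases after the RefSeq start (GRCm38.p6), read 5' to 3' on the strand of the gene. Capitals mark matches to the GC box GGGCGG or the antioxidant response element TGACNNNGC on either strand.
Kctd10, chr5:114380456-114380755, minus strand: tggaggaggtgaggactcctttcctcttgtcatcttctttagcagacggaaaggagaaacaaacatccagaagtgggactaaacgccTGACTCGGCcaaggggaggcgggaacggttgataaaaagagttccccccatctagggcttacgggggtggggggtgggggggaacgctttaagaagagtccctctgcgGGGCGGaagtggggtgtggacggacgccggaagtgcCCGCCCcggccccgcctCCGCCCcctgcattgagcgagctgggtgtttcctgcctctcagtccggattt
Kctd12, chr14:102982588-102982887, minus strand: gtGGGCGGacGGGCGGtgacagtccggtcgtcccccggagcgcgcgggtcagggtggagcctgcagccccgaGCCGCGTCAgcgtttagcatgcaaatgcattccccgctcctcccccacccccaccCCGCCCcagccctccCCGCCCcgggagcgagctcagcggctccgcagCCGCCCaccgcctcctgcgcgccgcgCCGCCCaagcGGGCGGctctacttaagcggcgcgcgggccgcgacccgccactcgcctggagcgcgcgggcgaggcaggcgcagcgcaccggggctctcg
Lztr1, chr16:17508962-17509261, plus strand: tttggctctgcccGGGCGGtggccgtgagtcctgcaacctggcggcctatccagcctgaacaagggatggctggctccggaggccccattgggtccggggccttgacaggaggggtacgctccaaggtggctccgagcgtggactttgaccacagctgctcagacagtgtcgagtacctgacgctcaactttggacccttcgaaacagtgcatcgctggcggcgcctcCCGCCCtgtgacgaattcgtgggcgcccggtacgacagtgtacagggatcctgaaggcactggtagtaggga
The windows hold 3, 7 and 2 GC boxes for Kctd10, Kctd12 and Lztr1, at a GC content of 60.7%, 78.0% and 63.3%. TGACNNNGC occurs once in each of the Kctd10 and Kctd12 windows and was not found in that of Lztr1. The Lztr1 window lies wholly inside the gene as GENCODE annotates it, downstream of the start at 17508688, so it may not hold the promoter of that transcript. The Kctd10 and Kctd12 windows do cover the annotated start of their gene. The GC boxes and GC content of the Lztr1 window are therefore not comparable with theirs. Of 68 members with a window 75.0% held a GC box, against 49.2% of 17492 protein-coding genes, at a median GC content of 60.7% against 56.3%. For TGACNNNGC the shares were 22.1% and 14.8%, and for the E-box CACGTG 8.82% and 8.91%. A match describes the letters and is not a measured site.

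Kctd10 (chromosome 5, 114363567 to 114380508, minus strand) had 227.7, 243.2 and 227.9 CPM in the wild-type cultures (10, 12, 16), and 285.9, 296.0 and 270.4 CPM in heterozygous cultures 11, 15 and 18. All heterozygous values were above all wild-type ones. The log2 difference was 0.29 (SE 0.060), which did not pass (edgeR adjusted p = 0.313). By DESeq2 it passed at an adjusted p of 0.00512, and by edgeR without wild-type 16 at 0.0396. Culture numbers 10 to 12 gave 0.28 and 15 to 18 gave 0.31. It was 0.27 in the first 4 registered cultures (10, 12, 15, 18) and 0.33 within the later pair (11, 16). The labels name neither kind of set as a batch, and these differences of log2 CPM have no test. Exons of Kctd10 overlap the opposite-strand gene Myo1h, at 0.996 to 2.93 CPM. The related gene Kctd13, also an adaptor for RHOA, had 9.38, 7.78 and 7.14 against 8.66, 7.86 and 10.1 CPM, which overlap, and a log2 difference of 0.12 (SE 0.16).

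Kctd12 (chromosome 14, 102976581 to 102982637, minus strand), an auxiliary subunit of GABA-B receptors, had 236.6, 231.2 and 198.0 CPM in wild-type and 170.5, 148.6 and 136.7 CPM in heterozygous cultures. All heterozygous values were below all wild-type ones, and wild-type culture 16 was the lowest of its group. The log2 difference was -0.55 (SE 0.098), not past the threshold at an edgeR adjusted p of 0.305. It passed in DESeq2 (adjusted p = 0.000503), in edgeR without a low-count filter (0.0244) and in edgeR without wild-type 16 (0.0123). It was -0.46 within culture numbers 10 to 12 and -0.47 within 15 to 18, but -0.71 within the first 4 registered cultures and -0.22 within the later pair. The antisense gene Gm26778 overlaps its exons and had 6.27, 12.3 and 2.75 CPM in wild-type and 13.8, 11.7 and 17.1 CPM in heterozygous cultures. The strand setting of the counting is not given, so reads of the pair cannot be told apart. The other GABA-B subunit genes were low. Kctd12b had a log2 difference of -0.27 (SE 0.24) and Kctd8 of -0.22 (SE 0.30), and Kctd16 was not tested.

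**Figure D4:**
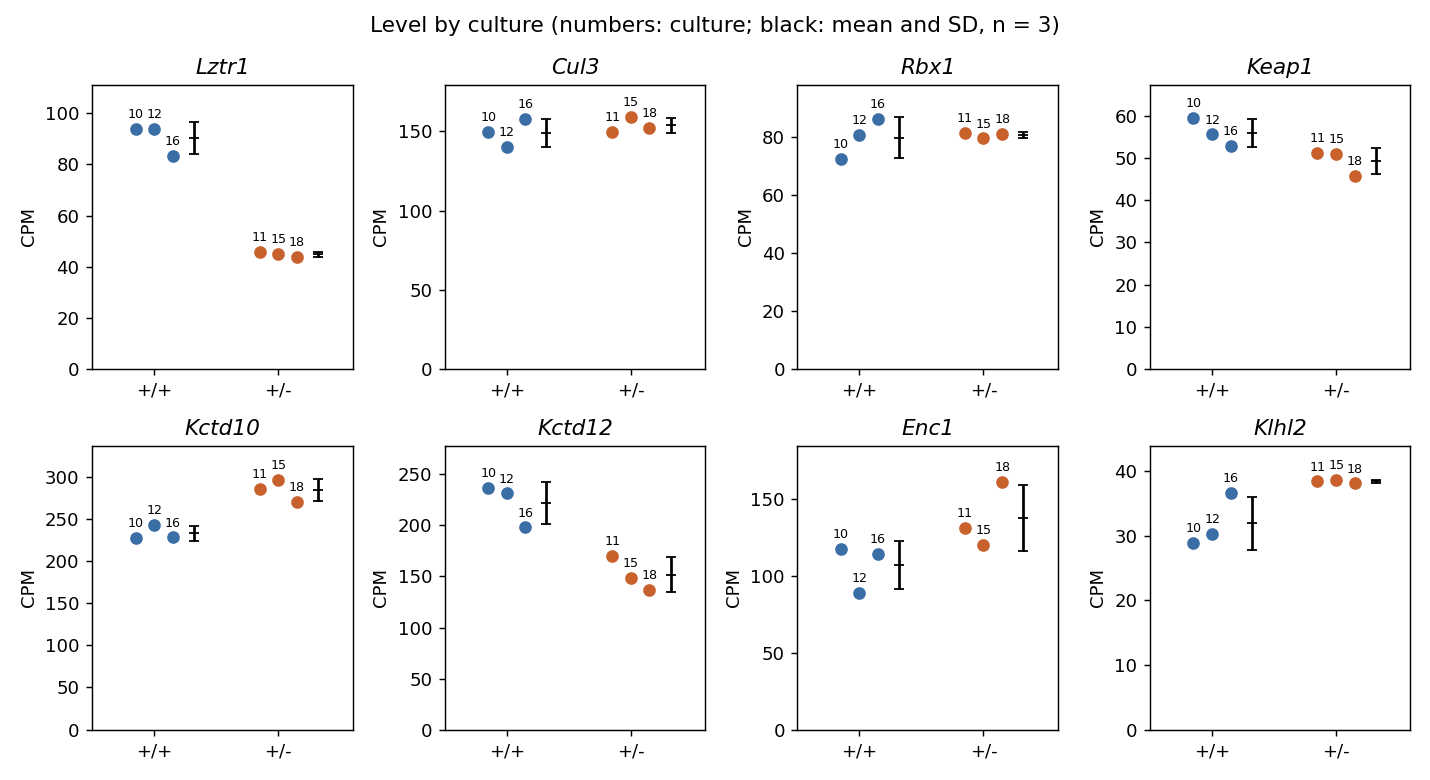
CPM of Lztr1, Cul3, Rbx1, Keap1, Kctd10, Kctd12, Enc1 and Klhl2 in each culture, on axes from 0; blue points are wild-type (+/+), orange points heterozygous (+/-), numbers the culture, and black bars the mean and SD (n = 3). The groups of Lztr1, Keap1, Kctd10, Kctd12, Enc1 and Klhl2 do not overlap, and those of Cul3 and Rbx1 do.

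Keap1, the sensor that keeps the antioxidant factor NRF2 low, had 59.4, 55.6 and 52.9 CPM in wild-type and 51.1, 51.0 and 45.8 CPM in heterozygous cultures. The groups did not overlap, and the log2 difference of -0.18 (SE 0.072) did not pass (edgeR adjusted p = 0.380). It was -0.17 within culture numbers 10 to 12 and -0.13 within 15 to 18, and -0.25 within the first 4 registered cultures but -0.05 within the later pair. Its exons overlap the antisense gene Gm16754, at 0.354 to 0.641 CPM. Among 16 NRF2 target genes 12 had a higher and 4 a lower mean, where 49.6% of all tested genes had a higher mean. Their median log2 difference was 0.06. By edgeR 0 were called with all cultures and 1 without wild-type 16, where 5.93% of all tested genes were called. With all cultures 1 was higher at an unadjusted p under 0.05, Txnrd1 (0.28, SE 0.11), against 5.56% of all tested genes.

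Among kelch adaptors linked to actin and cell shape, Enc1 and Klhl2 were nominally higher, and the groups did not overlap in either. Enc1, first known from neural ectoderm, had 117.9, 89.4 and 114.6 CPM in wild-type and 131.6, 120.6 and 161.6 CPM in heterozygous cultures. Heterozygous 18 was the highest, and the log2 difference was 0.36 (SE 0.13, edgeR adjusted p = 0.362), with 0.36 within culture numbers 10 to 12 and 0.28 within 15 to 18, and 0.44 within the first 4 registered cultures and 0.20 within the later pair. Summed neural markers were 331, 296 and 172 CPM in the same wild-type and 355, 286 and 451 CPM in the same heterozygous cultures, and their part in the value of Enc1 was not tested. Klhl2, an adaptor for WNK kinases, had 29.0, 30.3 and 36.6 against 38.4, 38.7 and 38.1 CPM, with wild-type 16 the nearest to the heterozygous cultures. Its log2 difference was 0.27 (SE 0.094, edgeR adjusted p = 0.341), and 0.38 without wild-type 16, where it passed (0.0207). Within culture numbers 10 to 12 it was 0.37, but 15 to 18 gave 0.07, the first 4 registered cultures 0.37 and the later pair 0.07. Klhl20, which targets DAPK1 and PML, had a log2 difference of -0.09 (SE 0.080), and Ipp, an actin-binding kelch protein, of 0.07 (SE 0.20).

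Klhl6, known from B lymphocytes, was low at 3.24, 2.03 and 4.21 CPM in wild-type and 4.47, 4.88 and 5.53 CPM in heterozygous cultures. Its log2 difference was 0.64 (SE 0.26, edgeR adjusted p = 0.390), with 0.80 within culture numbers 10 to 12 and 0.30 within 15 to 18. The first 4 registered cultures gave 1.02 and the later pair 0.09. Summed macrophage and blood markers were 250, 240 and 339 CPM in wild-type and 197, 367 and 351 CPM in heterozygous cultures, and their part in Klhl6 was not tested.

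None of the adaptors of mitosis was called. All 5 reached 1 TPM, and 2 had a higher and 3 a lower mean in heterozygous cultures. Klhl21, which acts on Aurora B, had 29.0, 24.4 and 30.9 CPM in wild-type and 32.6, 32.6 and 31.6 CPM in heterozygous cultures, without overlap, and the largest difference of the 5 at 0.20 (SE 0.094, edgeR adjusted p = 0.435). For Klhl9 and Klhl13, which act on the same kinase, it was -0.05 (SE 0.062) and 0.04 (SE 0.12). Klhl22 lies next in the list to Lztr1 on its chromosome, 233285 bases beyond its end. It had 83.4, 83.9 and 87.8 CPM in wild-type and 82.3, 79.4 and 85.5 CPM in heterozygous cultures, a log2 difference of -0.05 (SE 0.054). Its interval ran from 89.0% to 105.6% of wild-type.

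The remaining role groups gave no call. Klhl25, which targets ATP citrate lyase, differed by -0.19 (SE 0.084) without overlap of the groups, and Klhl11 by 0.39 (SE 0.19), also without overlap. Klhl11 differed by 0.22 without wild-type 16, by 0.22 within culture numbers 10 to 12 and by 0.84 within 15 to 18. The AP-2 repressor Kctd15 had 53.3, 56.2 and 43.8 CPM in wild-type and 46.8, 44.1 and 43.9 CPM in heterozygous cultures, a log2 difference of -0.18 (SE 0.095). With wild-type 16 left out it was -0.28 and passed (edgeR adjusted p = 0.0435), but within culture numbers 15 to 18 it was 0.0083. Btbd2, which binds topoisomerase I, had a log2 difference of -0.21 (SE 0.10), which was 0.08 in the later registered pair, and its partner Btbd1 of 0.07 (SE 0.061). Among the G protein adaptors Kctd5 differed by 0.10 (SE 0.053) and Kctd17 by -0.09 (SE 0.064). Spop differed by 0.06 (SE 0.057), Kctd20 by 0.02 (SE 0.054, with the sign changed by scaling to library totals) and the secretion and WNT adaptor Klhl12 by -0.02 (SE 0.091). Klhl34 and Klhl32, which are low and entered the test through the wild-type group alone, differed by -0.79 (SE 0.41) and -0.67 (SE 0.36). Klhl34 is 1 of 5 X-linked members, of which 4 were tested and 0 called.

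Without wild-type culture 16, 7 of the 72 members were called, 3 higher (Kctd10, Klhl2 and Kctd11) and 4 lower (Lztr1, Kctd12, Kctd15 and Klhl29). In that fit 5.93% of all tested genes were called, 3.69% higher and 2.24% lower. Klhl29 had 25.4, 26.8 and 18.5 CPM in wild-type and 19.6, 19.0 and 20.8 CPM in heterozygous cultures, and Kctd11 had 35.6, 31.7 and 55.5 against 43.7, 44.0 and 47.6 CPM. In both, wild-type 16 lay beyond the heterozygous values on the side away from the other wild-type cultures.

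The machinery around the adaptors was examined in lists named by function, and edgeR with all cultures called no gene in them. Without wild-type 16 it called 1 of the other BTB adaptors, 1 adaptor of other cullins and 1 substrate. In that fit it called 0 genes for neddylation, the COP9 signalosome and other cullins, where 5.93% of all tested genes were called. For comparison with all cultures, 49.6% of all tested genes had a higher mean, and 5.56% were higher at an unadjusted p under 0.05. Of 16 neddylation genes, which charge and exchange cullins, 9 had a higher and 7 a lower mean, with a median log2 difference of 0.01. The 9 genes of the COP9 signalosome, which removes NEDD8, had 6 higher and 3 lower means and a median of 0.03. Among 7 other cullins the median was 0.02, and Cul4b alone had an unadjusted p under 0.05 (0.15, SE 0.056). Of 16 adaptors of other cullins 10 had a higher and 6 a lower mean, with Ddb1 (0.15, SE 0.055) and Dcaf1 (0.14, SE 0.058) at an unadjusted p under 0.05. Of 15 tested genes in a list of other BTB adaptors 7 had a higher and 8 a lower mean, at a median of -0.07, with Armc5 (-0.24, SE 0.071), Abtb1 (-0.36, SE 0.12) and Lzts2 (-0.20, SE 0.057) lower at an unadjusted p under 0.05, where 6.65% of all tested genes were. Lzts2 encodes a leucine zipper protein and no BTB domain, and was listed in error. Without it 14 genes remain, 7 higher and 7 lower, at a median of -0.03, with 2 lower at an unadjusted p under 0.05. Of 32 known substrates of the adaptors 18 had a higher and 14 a lower mean, at a median of 0.02. Rit1, a substrate of LZTR1, differed by -0.01 (SE 0.089), and Rhoa, a substrate of the RHOA adaptors, by 0.08 (SE 0.054). Pml (0.29, SE 0.096) and Wnk1 (0.19, SE 0.062) were higher at an unadjusted p under 0.05, 2 of the 32 against 5.56% of all tested genes. RNA levels do not show the amounts of these proteins, which the ligases act on.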

How the data were processed

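Libraries of messenger RNA from 3 wild-type and 3 Lztr1 +/- cultures were made with an Illumina TruSeq kit, per the labels' protocols. Per the submitters' processing notes, RSEM 1.3.1, DESeq2 and mm10 were used. The strand setting, the aligner and the gene annotation release are not given in the labels or headers. The authors deposited 1 RSEM table per library. The deposited expected counts share ambiguous reads between genes, and 7.53% to 8.80% of values were not whole. The deposited TPM values, scaled for length and depth, were used for levels between genes. The deposited FPKM values were not used.

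Symbols and coordinates came from GENCODE M21 (GRCm38), and 51633 genes matched while 193 did not. Sequences around gene starts came from a RefSeq table (GRCm38.p6) matched by symbol. The members and gene lists were chosen with earlier results of these data known. Named genes are the 8 always of interest (Lztr1, Cul3, Rbx1, Keap1, Enc1, Ipp, Spop, Klhl22), the 6 with the smallest unadjusted p in each direction, the 10 highest in wild-type TPM, and examples from each role group.

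Expected counts were rounded, filtered with filterByExpr (14652 genes), scaled by TMM and compared between genotypes, without covariates, by the quasi-likelihood test of edgeR 4.0.16 (R 4.3.3). Calls were made at an adjusted p under 0.05 (Benjamini-Hochberg, over all tested genes), and intervals are at 95% and unadjusted. Log2 differences had a median SE of 0.11, at a biological coefficient of variation of 11.3%. CPM values are TMM-scaled. Detection was a wild-type mean of 1 TPM, and floors of 3 counts cover counting error only. Alternatives were DESeq2 1.42.0, limma 3.58.1 on log2(TPM + 1) and log2(TPM + 0.1), RLE scaling, library totals, no filter, an effective length offset, terms for registration block, culture number run and Y-linked expression, and leaving out each culture. The fit was tested on simulated counts. Exons of 25 members overlap another gene, and 15 members had a value that was not whole in at least 1 library, so their counts may include shared reads. For 4 of them, Kctd10, Kctd12, Keap1 and Btbd8, this held in all 6 libraries.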

Additional observations from a re-analysis of the deposited data

How the results depend on the processing

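Lztr1 alone was called under RLE scaling, library totals and each of the 3 added terms. The number of members called was 3 with DESeq2 and 2 without a low-count filter (Lztr1 and Kctd12, where 0.127% of all genes were called). It was 0 with the effective length offset and in both limma fits on TPM. Lztr1 then had a log2 difference of -0.91 (adjusted p = 0.0852) with the offset, -0.92 (0.260) with limma on log2(TPM + 1) and -0.94 (0.267) on log2(TPM + 0.1). With the offset 11 of 72 members had an unadjusted p under 0.05, against 11.1% of all genes. Leaving out 1 culture at a time gave 0 to 7 called members, 4 to 18 at an unadjusted p under 0.05 (6.2% to 23.6% of all genes), and 17 to 32 without overlap of the groups (23.5% to 42.9% of all genes). Each was highest without wild-type 16, for members and for all genes, where 5.93% of all genes were called. It put the log2 difference of Lztr1 at -1.06 to -0.97 and the median of the tested members at -0.0574 to 0.0085, which changed sign without wild-type 10 and without heterozygous 15 (0.0076). Differences near 0 changed sign in Ipp (-0.0186 with the Y-linked term, -0.0473 without wild-type 10, and -0.0882 to 0.1952 over the cultures left out), Rbx1 (-0.0034 with the run term, -0.0063 by library totals, -0.0002 in both limma fits, and -0.0428 to 0.0807 over the cultures left out), Cul3 (-0.0417 with the offset, -0.0603 and -0.0608 in the limma fits) and Kctd20 (-0.0043 by library totals). The cause of these changes was not tested. The count of intervals within 1.5-fold was 41 to 58 over all settings, and detection covered 72 members at 0.5 TPM and 60 at 2 TPM. No paired analysis was possible because the groups share no replicate numbers.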

Other observations

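The deposited tables carry an effective gene length that differs between libraries, and TPM, unlike CPM, is divided by it. The members given here were chosen after their values were seen. For Cul3 it was 2385 ± 24.1 bases in wild-type and 2539 ± 99.7 bases in heterozygous cultures (SD, n = 3 each), 6.48% longer, and its mean was 149.1 against 153.8 CPM but 102.1 against 97.9 TPM. Lztr1 had 2404 ± 105 and 2276 ± 234 bases, with 2072 in heterozygous 11 and 2531 in heterozygous 15. In Btbd1 the length differed by -11% in heterozygous cultures, at 70.8 against 74.2 CPM and 52.4 against 61.0 TPM. In Klhl25 it was 9.14% longer, at 25.8 against 22.6 CPM and 15.6 against 12.4 TPM. In Kctd10 and Kctd12 it differed by -0.488% and 0.049%, and both scales gave the same direction. Transcript isoforms were not analysed here.

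Several adaptors stood at levels in wild-type culture 16 that lay outside those of the other 5 cultures, and 3 are given here, also chosen after their values were seen. Kctd11, an adaptor that acts on HDAC1 in hedgehog signalling, had 55.5 CPM there and 31.7 to 47.6 CPM elsewhere. Klhl11 had 4.21 CPM there and 6.20 to 7.70 CPM elsewhere. Klhl13 had 23.2 CPM there and 27.2 to 32.1 CPM elsewhere.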
